A study of Mus musculus with 5 samples.

Results

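The genes described here are force-gated ion channels and polycystins (Piezo1, Piezo2, Trpv4, Kcnk2, Pkd1, Pkd2) and the coactivators YAP and TAZ (Yap1, Wwtr1) with their DNA-binding partners Tead1 and Tead3. They were chosen by gene symbol, and 9 of the 10 had a probe set among 23185 named genes. Pkd2 is not analysed here. Expression was measured in 5 clones grown from single cells of the mouse osteocyte-like line Ocy454, with 1 Affymetrix array per clone. Clones 12H and 15H had been picked as high-Sost and clones 4L, 9L and 24L as low-Sost out of 37 clones screened for Sost, the gene for the secreted Wnt inhibitor sclerostin. All 5 grew untreated for 7 days at 37 °C in alpha-MEM with fetal serum and the additive the labels write as AA. A group is thus a handful of clones of 1 line, and a difference between groups holds every way in which these clones differ. The comparison asks whether genes of force sensing differ between clones chosen on Sost.

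PIEZO channels open when membrane tension increases and let calcium and other cations into the cell, and Piezo1 is needed in bone-forming cells for normal bone mass. TRPV4 is a cation channel opened by osmotic and mechanical stimuli, Kcnk2 encodes the stretch-activated potassium channel TREK-1, and the polycystins form a receptor and channel complex at the primary cilium. YAP and TAZ enter the nucleus on stiff or spread-out substrates and bind TEAD factors, unless the Hippo kinases LATS1 and LATS2 phosphorylate them. Their activity is set largely by location and phosphorylation, which an RNA array does not read.

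Values are RMA log2 expression. They compare a gene between clones but not 1 gene with another, so levels are placed against a floor, the 95th percentile of 1354 olfactory and vomeronasal receptor genes in the same clone (3.37 to 3.56 over the clones). Array medians were 4.13 to 4.16. Precision is limited by there being 5 arrays. Of 9 osteocyte markers 4 stood above the floor in every clone, and 3 (Mepe, Fgf23 and Ptprz1) did so in none. Dmp1, Phex and Dkk1 were far higher in the high-Sost clones without overlap, while Pdpn was lower (8.35 and 8.06 against 8.97 to 9.20). Dmp1 and Phex lay under the floor in every low-Sost clone. Of the 9 markers, 5 were higher and 1 was lower without overlap, where 8.26% and 7.75% of all genes were. The 5 include Sost, on which the clones were chosen. Dmp1, a matrix protein gene of osteocytes, read 7.45 and 5.75 against 2.54 to 2.90, Phex, an endopeptidase gene of phosphate balance, 6.04 and 6.99 against 2.08 to 3.17, and Dkk1, a secreted Wnt inhibitor gene, 6.71 and 8.17 against 3.46 to 3.93. Sost, which chose the clones, read 4.08 and 3.92 in the high-Sost and 3.78 to 3.91 in the low-Sost clones. Of 4 endothelial markers 0 and of 5 myeloid markers 3 were above the floor in every clone, and Ptprc, the pan-leukocyte marker, was below it in all of them.

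Promoter sequence was available from RefSeq (GRCm38.p6) for 8 of the 10 genes, all but Piezo2 and Tead1. The letters GGAATG, or CATTCC on the other strand, which are the core bound by TEAD factors, were searched in the 250 bases before each start. They occurred in 7 of 14 windows of these genes, against 12.6% of all 32851 windows. The windows of 1 gene can overlap, and both Wwtr1 windows hold the same match. Shown first, 5′ to 3′ on the strand of the gene with the motif in capitals, are the coactivator genes Yap1 (chr9:8004597-8004846, minus strand) and Wwtr1 (chr3:57575911-57576160, minus strand), with a match 141 and 136 bases before the start. Piezo1 (chr8:122551330-122551579, minus strand) and Trpv4 (chr5:114658422-114658671, minus strand) follow, since they are the channels whose levels separated the groups most clearly, and their windows hold no match.
Yap1: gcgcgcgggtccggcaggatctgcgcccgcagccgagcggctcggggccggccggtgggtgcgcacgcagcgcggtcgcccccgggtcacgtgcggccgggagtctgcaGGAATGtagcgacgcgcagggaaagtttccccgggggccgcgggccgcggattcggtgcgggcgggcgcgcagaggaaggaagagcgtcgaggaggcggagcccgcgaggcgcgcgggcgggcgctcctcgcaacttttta
Wwtr1: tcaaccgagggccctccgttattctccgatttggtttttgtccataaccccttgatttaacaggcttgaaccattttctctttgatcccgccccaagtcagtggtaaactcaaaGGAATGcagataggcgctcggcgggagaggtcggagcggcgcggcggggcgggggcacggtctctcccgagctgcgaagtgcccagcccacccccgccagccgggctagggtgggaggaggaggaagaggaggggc
Piezo1: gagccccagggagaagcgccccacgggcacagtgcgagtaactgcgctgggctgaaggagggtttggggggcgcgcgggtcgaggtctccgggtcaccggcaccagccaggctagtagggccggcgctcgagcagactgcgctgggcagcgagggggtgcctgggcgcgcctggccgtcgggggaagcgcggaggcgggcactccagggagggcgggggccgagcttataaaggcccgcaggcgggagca
Trpv4: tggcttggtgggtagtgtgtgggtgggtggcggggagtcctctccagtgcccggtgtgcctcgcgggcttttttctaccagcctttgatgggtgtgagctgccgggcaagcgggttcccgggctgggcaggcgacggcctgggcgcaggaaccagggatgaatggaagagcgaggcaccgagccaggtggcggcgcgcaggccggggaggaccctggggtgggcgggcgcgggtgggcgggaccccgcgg

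No gene of the 9 passed the comparison of high-Sost with low-Sost clones (limma with Benjamini-Hochberg adjustment over all named genes, adjusted p under 0.05), and neither did any other gene (0 of 23185, 0%). At an unadjusted p under 0.05 there was 1, Piezo1, against 5.78% of all genes (3.07% higher and 2.71% lower). In Piezo1, Trpv4 and Pkd1 the values of the groups did not overlap, with the high-Sost clones above the low-Sost clones each time, and 0 of the 9 were lower without overlap. Over all named genes 8.26% were higher and 7.75% lower without overlap (16% in either direction), and among the 7807 genes with a mean of 6 or more 12.9% and 13.5%. The median difference of the 9 genes was 0.12, against 0 for all named genes, and it was 0.046 without 4L, 0.061 without 15H and 0.19 without 9L.

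**Figure D1:**
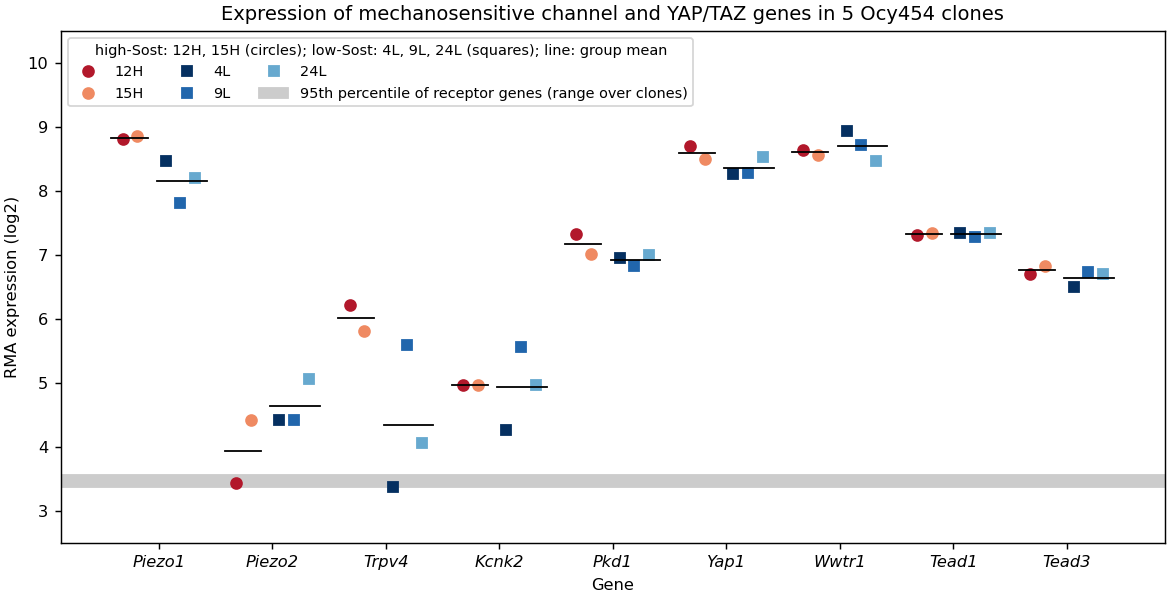
RMA log2 expression (y axis) of the 9 measured genes (x axis) in each of the 5 clones, with circles for the high-Sost clones, squares for the low-Sost clones and short lines for group means. The grey band spans the 95th percentile of receptor genes over the clones (3.37 to 3.56). Piezo1 and Trpv4 separate the groups, Piezo2 touches the band in clone 12H and Trpv4 in clone 4L, and Tead1 is nearly level.

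Piezo1 (Entrez gene 234839, chromosome 8), a tension-gated cation channel, read 8.81 in 12H and 8.87 in 15H. Among low-Sost clones 4L was at 8.47, 24L at 8.20 and 9L at 7.82. Both high-Sost clones lay above every low-Sost clone, and the gap of 0.34 to 4L exceeded the SD of either group. The group means, 8.84 ± 0.04 (SD, n = 2) and 8.16 ± 0.33 (SD, n = 3), were 1.60-fold apart, with a difference of 0.67 (SE 0.22). The 95% interval of limma's difference ran from 0.040 to 1.31, with an unadjusted p of 0.042 and an adjusted p of 0.737. Piezo1 stood at the 85.4 to 94.4 percentile of named genes and so was well above the floor in all clones. On bulk arrays, fewer cells expressing a gene and less RNA per cell cannot be told apart.

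Trpv4 (Entrez gene 63873, chromosome 5) varied most of the 9 genes, with a range of 2.83 between clones that 1.35% of named genes reached. It read 6.21 in 12H and 5.81 in 15H, while 9L was at 5.60, 24L at 4.06 and 4L at 3.38. The low-Sost clones spanned 2.22 among themselves, and 9L lay only 0.22 below 15H. The value in 4L was under that clone's floor of 3.45. The means were 6.01 ± 0.28 (SD, n = 2) and 4.35 ± 1.14 (SD, n = 3), 3.18-fold apart (1.67, SE 0.77, limma adjusted p = 0.737). Trpv4 was the only one of the 9 with no overlap and a difference of 2-fold or more, a rule met by 1.85% of all genes (0.867% higher and 0.983% lower). The difference was 1.18 without 4L and 2.29 without 9L.

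Piezo2 (Entrez gene 667742, chromosome 18), the channel best known from touch-sensing neurons, pointed the other way in value. It read 3.44 in 12H, below the floor of 3.55, then the same 4.42 in 15H, 4L and 9L, and 5.06 in 24L. The identical readings of 15H and the low-Sost clones 4L and 9L leave no separation of the groups. Means of 3.93 ± 0.69 (SD, n = 2) and 4.63 ± 0.37 (SD, n = 3) differed by -0.70 (SE 0.41, limma adjusted p = 0.737). It was -0.22 without 12H and -1.19 without 15H. Only 24L exceeded the 99th percentile of the receptor genes, so Piezo2 was near the floor in the other clones.

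Kcnk2 (Entrez gene 16526, chromosome 1) did not follow the Sost grouping. It read the same 4.97 in 12H, 15H and the low-Sost clone 24L, with 4L at 4.26 and 9L at 5.57. The widest contrast was thus between clones of the low-Sost group, and the group difference was 0.03 (SE 0.44, 95% interval -1.22 to 1.29). Equal readings on several arrays also occurred in Piezo2 and Tead1, and 55.9% of named genes hold such repeats.

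Pkd1 (Entrez gene 18763, chromosome 17), the large receptor-like polycystin, read 7.34 in 12H and 7.01 in 15H, against 6.95 (4L), 6.83 (9L) and 7.01 (24L). Clone 15H exceeded 24L by 0.0061, far less than the SD of either group, and the order turned when the arrays were quantile normalized again (7.00 and 7.01). Means of 7.17 ± 0.23 (SD, n = 2) and 6.93 ± 0.09 (SD, n = 3) differed by 0.25 (SE 0.13, limma adjusted p = 0.737). Without 12H it was 0.084 and without 15H 0.41.

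Yap1 (Entrez gene 22601, chromosome 9), the gene for YAP, read 8.70 in 12H and 8.50 in 15H. The low-Sost clones read 8.27 (4L), 8.29 (9L) and 8.54 (24L). Clone 24L lay between the high-Sost clones, so the groups overlapped, and the difference of 0.24 (SE 0.12, 95% interval -0.12 to 0.59) did not pass. Without 12H the difference was 0.14. Wwtr1 (Entrez gene 97064, chromosome 3), the gene for TAZ, read 8.65 in 12H and 8.57 in 15H, against 8.93 (4L), 8.72 (9L) and 8.47 (24L). Clone 4L had the highest Wwtr1 and the lowest Yap1, but 24L had the lowest Wwtr1, and the group difference of -0.099 (SE 0.16) turned to 0.014 without 4L.

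Tead1 and Tead3 varied least of the 9 genes. Tead1 (Entrez gene 21676, chromosome 7) read 7.28 in 9L, 7.31 in 12H and 7.34 in the other clones, a range of 0.060 that 90.7% of named genes equalled or exceeded. Its difference was 0.0045 (SE 0.032), with a 95% interval of -0.086 to 0.095. Tead3 (Entrez gene 21678, chromosome 17) read 6.71 in 12H and 6.82 in 15H, against 6.50 (4L), 6.74 (9L) and 6.70 (24L). Clone 9L lay above 12H, and the difference was 0.12 (SE 0.095, limma adjusted p = 0.746). Without 4L it was 0.046 and without 15H 0.061.

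Across the clones, 4 of the 9 genes (Piezo1, Piezo2, Trpv4 and Kcnk2) had a range of 1 or more, against 11.7% of all named genes and 17.2% of those with a mean of 6 or more. Clone 4L was the lowest for 4 genes (Trpv4, Kcnk2, Yap1 and Tead3), where 19.2% of all named genes had their lowest value in it. Clone 9L was the lowest for 3 (Piezo1, Pkd1 and Tead1), against 17.5% of all. Clone 15H was the lowest for 0 of the 9, against 13.4% of all.

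The median expression of some chromosomes deviated in single clones, and several of the genes lie on such chromosomes. The part of these shifts in the values of the genes was not tested. On chromosome 8, the median deviation of 444 genes with a mean of 6 or more was 0.27 in 12H and -0.25 in 9L, where Piezo1 was lowest. It lay between -0.011 and 0.0086 in the others, among them 15H, where Piezo1 was highest. Of the 20 such genes nearest to Piezo1, 17 were higher in the high-Sost clones, with a median difference of 0.12. With the chromosome medians subtracted, a step added after seeing the data, Piezo1 read 8.54 in 12H, 8.88 in 15H, 8.47 (4L), 8.07 (9L) and 8.19 (24L). The groups stayed apart, and the difference was 0.46 (SE 0.18) in place of 0.67.

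For Yap1 the shifts ran against the group difference. Chromosome 9 stood at 0.20 in 24L and -0.11 in 15H, and after subtraction Yap1 read 8.71 in 12H and 8.61 in 15H against 8.23 (4L), 8.33 (9L) and 8.34 (24L). The groups then no longer overlapped (0.36, SE 0.11, limma adjusted p = 0.596). The 19 genes nearest to Yap1 had medians of 0.34 in 24L and -0.19 in 15H, on the same side as the chromosome. In 12H (0.22) and 4L (-0.24) they lay on the other side from the chromosome, which stood at -0.013 and 0.040. Whether Yap1 stays without overlap when the medians of these nearest genes are subtracted instead was not tested. Wwtr1 lies on chromosome 3, which stood at -0.16 in 24L. After subtraction its low-Sost clones read 8.64 to 8.89, all above 8.62 in 12H and 8.57 in 15H (difference -0.14, SE 0.12).

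Kcnk2 lies on chromosome 1, where the median was -0.31 in 4L and 0.19 in 9L, the clones in which Kcnk2 was lowest and highest. Subtraction narrowed Kcnk2 to 4.58 in 4L and 5.38 in 9L. Trpv4, on chromosome 5, kept a difference of 1.67 (SE 0.72). In all, 5 of the 9 genes (Piezo1, Trpv4, Pkd1, Yap1 and Tead3) were higher and 1 (Wwtr1) lower without overlap after subtraction. Of all genes 12.9% were then higher and 9.83% lower, and of those with a mean of 6 or more 15.9% and 15.2%. The gaps were narrow for Tead3, at 6.73 in 12H and 6.72 in 9L, and for Wwtr1, at 8.62 in 12H and 8.64 in 24L.

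**Figure D2:**
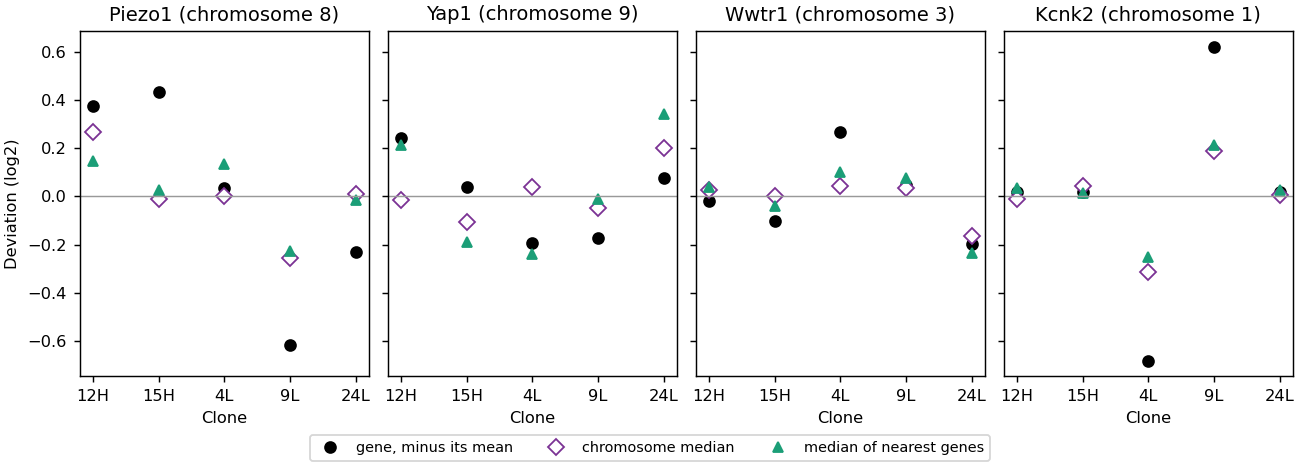
Deviation on the log2 scale (y axis) of Piezo1, Yap1, Wwtr1 and Kcnk2 in each clone (x axis). Filled circles show the gene minus its own mean over the 5 clones, diamonds the median deviation of its chromosome from the other 4 clones, and triangles the median deviation of the 20 nearest genes with a mean of 6 or more (19 for Yap1). Piezo1 is low in 9L where chromosome 8 stands at -0.25, and Kcnk2 is low in 4L and high in 9L, as chromosome 1 is.

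**Figure D3:**
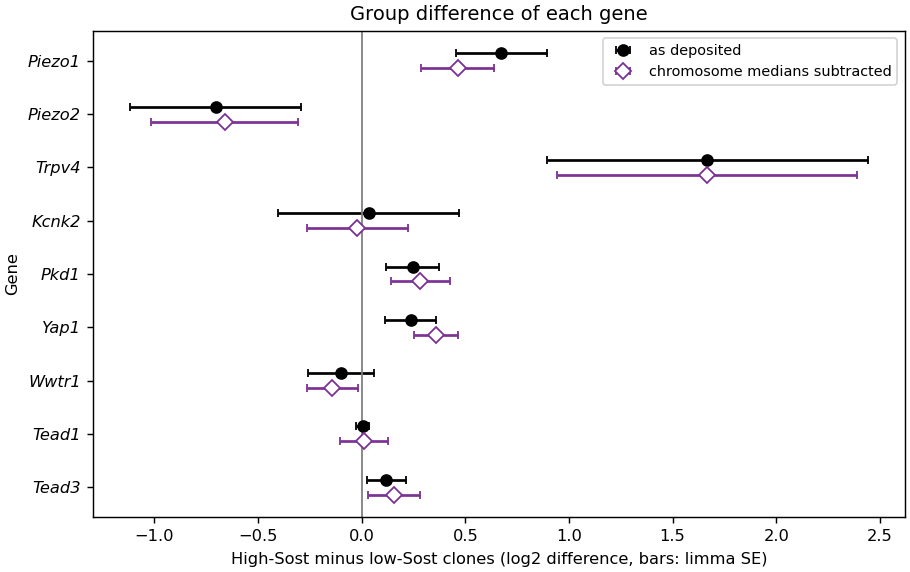
Difference between high-Sost and low-Sost clones (x axis, log2) for each gene (y axis), with limma's SE as bars. Black circles show the values as deposited and open diamonds those after chromosome medians were subtracted. Piezo1 moves from 0.67 to 0.46, Yap1 from 0.24 to 0.36, and Trpv4 stays at 1.67.

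The genes whose pattern was most like these were sought among 7807 genes with a mean of 6 or more, by the root-mean-square distance of mean-centred log2 values over the 5 clones. For Piezo1 they were Slc6a6, the taurine transporter (distance 0.044), and Sirt1, a deacetylase (0.071), where Piezo1 itself varied by 0.39 about its mean. For Trpv4 they were Pgm5 (0.13) and the cell-surface proteoglycan gene Gpc1 (0.22), where Trpv4 varied by 1.09. Kcnk2 was closest to Hsd17b7 (0.045) and Ppp1r7 (0.053), both of which lie on chromosome 1 as Kcnk2 does. For Piezo2 they were Matn2 (0.086) and Sulf2 (0.12).

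Of 27 other mechanically gated or stretch-modulated channel genes measured, 11 stood above the floor in every clone and 13 in none. Without overlap 4 were higher and 3 lower, where 8.26% and 7.75% of all genes were, and the median difference was 0. The voltage-gated calcium channel genes Cacna1c and Cacna1g and the accessory subunit gene Cacna2d1 were the 3 lower ones, all with readings under the floor in high-Sost clones, so no size is given for their differences. Cacna1c (3.35 and 3.49) and Cacna1g (2.93 and 3.02) lay under it in both high-Sost clones, with low-Sost readings of 3.93 to 4.58 and 3.20 to 4.24. Cacna2d1 read 4.11 in 12H and 2.51, under the floor, in 15H, against 6.39 (4L), 4.51 (9L) and 5.80 (24L). Tmem63c, a relative of plant osmosensitive channels, differed by 0.16 (SE 0.042) but stood under the floor in every clone. Among channels above the floor in every clone, Trpm7, a channel fused to a kinase, differed by 0.23 (SE 0.12) and the calcium-activated Trpm4 by 0.58 (SE 0.26); both were chosen after their values were seen. Of 6 genes for PIEZO partners, Stom, a membrane scaffold, was lower without overlap (-0.35, SE 0.17), and Mdfic, a PIEZO-binding subunit chosen after its values were seen, overlapped (0.18, SE 0.16).

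Genes for polycystin maturation and the primary cilium were measured for 24 of 26 members, 5 of them higher without overlap and 0 lower, where 8.26% and 7.75% of all genes were, and 12.9% and 13.5% of those with a mean of 6 or more. Sec63, an endoplasmic reticulum translocon gene needed for polycystin processing, read 9.09 in 12H and 9.00 in 15H, against 8.58 (4L), 8.72 (9L) and 8.45 (24L). Its difference was 0.46 (SE 0.096, limma adjusted p = 0.677). Tctn1, of the ciliary transition zone, differed by 0.55 (SE 0.19), Adcy3, a ciliary adenylyl cyclase, by 0.75 (SE 0.34) and Bbs1, of the BBSome, by 0.43 (SE 0.20). Bicc1, an RNA-binding protein gene linked to cystic kidneys and chosen after its values were seen, differed by 0.84 (SE 0.40). The median difference was 0.093 (0.055 without 4L and 0.058 without 12H), and the intraflagellar transport genes Ift88 (0.13) and Ift20 (-0.11), also chosen afterwards, had small values of either sign.

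Differences among Hippo kinases and their regulators went in both directions, as they did over all genes. Of 24 measured, 4 were higher and 4 lower without overlap. In either direction 16% of all genes and 26.4% of those with a mean of 6 or more (12.9% higher and 13.5% lower) did not overlap. Of the 24, 21 had a mean of 6 or more. The median difference was 0.083, and leaving out 1 clone gave 0.019 (15H) to 0.14 (4L). Lats2, a kinase that phosphorylates YAP and TAZ, read 7.07 in 12H and 6.82 in 15H, against 6.60 (4L), 6.33 (9L) and 6.04 (24L) (0.62, SE 0.21). Amotl2, an angiomotin-family protein gene, read 7.17 and 7.56 against 8.57, 7.79 and 8.20 in the same order of clones (-0.82, SE 0.29). Taok1, a kinase upstream of Hippo, differed by 0.30 (SE 0.11). The giant cadherins split, with Fat4 at -2.14 (SE 0.88) and Fat1, chosen after its values were seen, at 1.16 (SE 0.52). Fat4 read 3.56 in 12H, barely above that clone's floor of 3.55, and 4.56 in 15H, against 5.62 (4L), 5.40 (9L) and 7.59 (24L). Its signal in 12H thus limits the size of the difference.

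Among the TEAD partners not listed at the start, Vgll4, a cofactor that competes with YAP for TEAD, read 8.61 in 12H and 8.35 in 15H. It read 7.59 (4L), 7.98 (9L) and 7.43 (24L), a difference of 0.82 (SE 0.21). Vgll3, another TEAD cofactor, read 6.99 in 12H and 7.81 in 15H, against 8.28 (4L), 8.63 (9L) and 8.31 (24L) (-1.003, SE 0.31). The groups did not overlap for either, and both had a limma adjusted p of 0.737. Of the 6 genes measured, 1 was thus higher and 1 lower without overlap, where 8.26% and 7.75% of all genes were. Among genes with a mean of 6 or more the shares were 12.9% and 13.5%. Tead2 and Tead4 overlapped between groups, with differences of 0.13 (SE 0.24) and 0.35 (SE 0.26).

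The 22 YAP/TAZ target genes share Amotl2, Lats2 and Ptpn14 with the Hippo genes above. All 22 were measured and stood above the floor in every clone. Their median difference was -0.62 (-0.39 without 12H or without 24L), against 0 for all named genes, and 17 of the 22 had a difference below 0 where 45.6% of all genes did. Without overlap 7 were lower and 1, Lats2, was higher, beside the 7.75% lower and 8.26% higher of all genes and the 13.5% and 12.9% of those with a mean of 6 or more. None passed over all genes (limma, 0 at an adjusted p under 0.05), and 2, Ccn1 and Lats2, had an unadjusted p under 0.05. The count of lower genes was 8 without 12H, 4L or 24L, 12 without 15H and 13 without 9L. Over all genes 21% and 12.9% were lower when 15H and 9L were left out, since fewer clones separate more easily. Of genes with a mean of 6 or more 27% and 21.2% were. Without 12H, 4L and 24L the shares were 18.5%, 11.1% and 11.7% of all genes. With a mean of 6 or more they were 22.3%, 18.3% and 20.1%. The higher count was 4 without 9L, against 13.6% of all genes. After subtraction of chromosome medians 8 were lower and 1 was higher, against 9.83% and 12.9% of all genes.

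Ccn1, a matricellular gene much used as a readout of YAP, read 10.2 in 12H and 10.0 in 15H, against 10.6 (4L), 10.7 (9L) and 11.0 (24L). The groups did not overlap, and the difference was -0.65 (SE 0.18). Nuak2, a kinase gene, read 4.53 and 5.02 against 5.28 to 5.85 (-0.72, SE 0.27). The other 4 that were lower without overlap, beside Amotl2, were chosen after their values were seen. Ankrd1, a nuclear ankyrin-repeat gene, read 6.98 in 12H and 8.15 in 15H, against 11.0 (4L), 8.31 (9L) and 8.92 (24L) (-1.84, SE 1.03). F3, the gene for tissue factor, differed by -1.29 (SE 0.57), Crim1 by -1.13 (SE 0.71) and Rbms3 by -0.69 (SE 0.26). Ccn2, likewise chosen afterwards and the closest relative of Ccn1 in use as a readout, read 4.97 in 12H, 6.23 in 15H, 6.85 (4L), 5.41 (9L) and 7.24 (24L), so its groups overlapped (-0.90, SE 0.77).

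By clone, the mean over the 22 targets was 6.80 in 12H and 7.17 in 15H, and 7.68 (4L), 7.17 (9L) and 7.62 (24L). Clone 9L thus lay level with 15H. Of 4 markers of smooth muscle, a cell type rich in contractile actin, 3 also read lower in the high-Sost clones. Their summed level over the 4 measured was 22.6 to 22.8 in the high-Sost and 25.6 to 30.1 in the low-Sost clones. Acta2, Tagln and Cnn1 were lower without overlap, where 7.75% of all genes were, and Myh11 lay between 4.24 and 4.44 in all clones. Cnn1 was under the floor in 12H (3.44) and 15H (3.51). Osteoblast markers read the other way. Their summed level over the 6 measured was 60.1 to 62.1 in the high-Sost clones, and 34.9 (4L), 53.6 (9L) and 51.9 (24L) in the low-Sost clones. Without overlap 4 of the 6 were higher, where 8.26% of all genes were, and Col1a1 and Col1a2 overlapped. In 4L, Ibsp (2.24) and Sp7 (2.68) lay under the floor. The 9 osteocyte markers summed to 47.5 and 48.3 in the high-Sost and 35.3 to 37.5 in the low-Sost clones. The largest differences among the 9 were those of Dmp1 (3.86), Phex (3.90) and Dkk1 (3.78). Dmp1 and Phex lay under the floor in every low-Sost clone, which limits the size of their differences. A difference below 0 was found for 4 of the 9, where 45.6% of all genes had one. They were Pdpn (-0.92, SE 0.13) and Mepe, Fgf23 and Ptprz1, which were under the floor in every clone. The part of these markers in the YAP/TAZ target values was not tested.

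**Figure D4:**
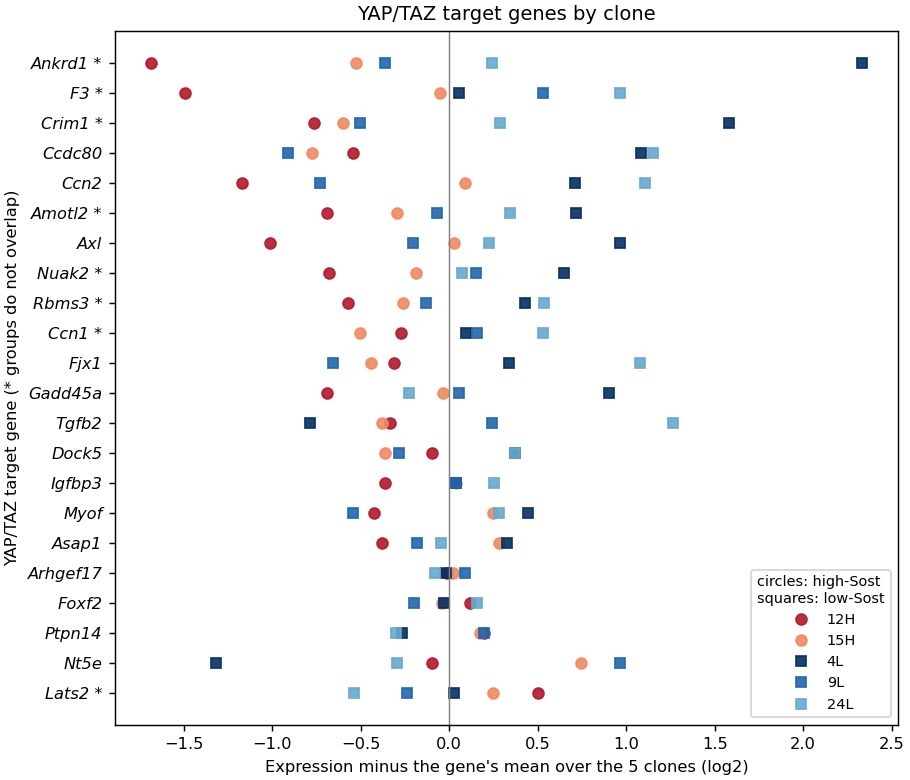
Expression of the 22 YAP/TAZ target genes (y axis, ordered by group difference) as log2 deviation from each gene's mean over the 5 clones (x axis), with circles for high-Sost and squares for low-Sost clones. Asterisks mark the 8 genes whose groups do not overlap, 7 with the high-Sost clones to the left and Lats2 with them to the right. Clone 4L lies far to the right for Ankrd1 and Crim1.

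Of these 22 targets, 15 had RefSeq promoter windows, and 6 of the 15 held the TEAD core in the 250 bases before a start, against 14.4% of all 27025 genes. Amotl2, Ankrd1, Ccn1 and Crim1 were among the 6 and were lower in the high-Sost clones without overlap, while Axl (-0.82, SE 0.53) and Ptpn14 (0.31, SE 0.19) held a match and overlapped. F3 and Rbms3 were lower without overlap and Lats2 higher, and their windows held no match. The windows of Ccn1 (chr3:145649986-145650235, minus strand), Amotl2 (chr9:102717554-102717803, plus strand) and Ankrd1 (chr19:36119845-36120094, minus strand) are shown as targets with low readings in the high-Sost clones. The matches, in capitals, lie 103 bases before the start in Ccn1, 65 in Amotl2, and 210 and 123 in Ankrd1. A match is a description of the letters and not a measured binding site.
Ccn1: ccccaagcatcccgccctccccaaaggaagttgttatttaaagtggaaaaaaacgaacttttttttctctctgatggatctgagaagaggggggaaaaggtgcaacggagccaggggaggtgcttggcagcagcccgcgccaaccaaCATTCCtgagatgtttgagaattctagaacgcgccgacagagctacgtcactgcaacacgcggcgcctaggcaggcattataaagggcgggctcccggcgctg
Amotl2: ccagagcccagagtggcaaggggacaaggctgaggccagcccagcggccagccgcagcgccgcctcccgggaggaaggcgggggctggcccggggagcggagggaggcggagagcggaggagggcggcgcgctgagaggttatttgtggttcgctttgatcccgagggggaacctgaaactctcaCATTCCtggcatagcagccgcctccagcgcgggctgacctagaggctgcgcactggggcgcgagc
Ankrd1: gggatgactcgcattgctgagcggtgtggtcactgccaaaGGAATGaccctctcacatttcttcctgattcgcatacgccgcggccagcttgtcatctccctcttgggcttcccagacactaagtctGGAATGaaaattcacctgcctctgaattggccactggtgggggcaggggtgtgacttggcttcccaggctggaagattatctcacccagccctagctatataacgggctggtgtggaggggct

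Genes known to respond to load in osteocytes were measured for all 15 of a list that shares Ccn1 and Ccn2 with the targets and also holds Sost. Without overlap 4 were higher, among them Sost, on which the clones were chosen, and 3 lower, where 8.26% and 7.75% of all genes were, and 12.9% and 13.5% of those with a mean of 6 or more. The median difference of -0.25 was 0.026 without 12H, -0.086 without 24L, -0.14 without 9L and -0.15 without 15H. Egr1, an immediate early factor, read 6.40 in 12H and 6.48 in 15H, against 7.21 (4L), 7.34 (9L) and 7.63 (24L) (-0.95, SE 0.15). Igf1, a growth factor induced by loading, read 2.69 and 2.86, under the floor, against 5.70, 3.69 and 6.68. Gja1, the gap junction gene of the osteocyte network, read 8.79 and 8.39 against 6.47, 7.22 and 8.13 (1.32, SE 0.57). Ptgs2, which makes prostaglandins after loading and was chosen after its values were seen, read 7.04 and 6.64 against 6.52, 5.92 and 6.52 (0.52, SE 0.27).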

How the data were processed

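Total RNA of 5 clones was labelled with biotin (per the labels' protocols) and hybridised to 1 Affymetrix array each. The values deposited by the authors are log2 expression per probe set. Per the submitters' processing notes they came from RMA in affy 1.36.1 under R 2.15.1. RMA corrects background, equalises arrays and summarises probes by medians, so a shift shared by most genes is removed and values repeat between arrays (14333 of 25206 rows). The chip definition was not given in the sources used here, nor was the genome build.

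Gene names came from the platform annotation, brought up to date by Entrez number from RefSeq (GRCm38.p6): all 23185 with 1 gene matched, and 2021 without a gene were left out. High-Sost was compared with low-Sost clones by limma 3.58.1 in R 4.3.3 (lmFit, eBayes, 3 residual and 0.701 prior degrees of freedom), two-sided, with Benjamini-Hochberg adjustment over all named genes. With 1 array per clone, p-values measure spread between clones. For 2 against 3 clones the smallest p of an exact permutation test is 0.1. Where 12H or 15H was left out, the fit assumes that the remaining one varies as the low-Sost clones do. For chromosome medians, each clone was set against the median of the other 4 over genes averaging at least 6. The fit was tested on simulated data.

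Members and lists were chosen with earlier results of these data known. From each list up to 4 genes without overlap and with the smallest p were named, or the 2 with the smallest p where none was without overlap. For each member with a range of 1 or more, the 2 nearest genes were named. Some genes of the lists are not reported here. Alternatives were a filter on the dimmest 30% of genes, other normalizations and variance models, array weights, no moderation, leaving out each clone, and, added after seeing the data, subtracting chromosome medians and dropping constant genes. Averaging probe sets did not apply, and a planned protein comparison was not run. Figures used matplotlib 3.10.9 in Python 3.11.15.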

Additional observations from a re-analysis of the deposited data

How the results depend on the processing

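Piezo1, Piezo2, Trpv4, Pkd1, Yap1 and Tead3 kept their direction under all 14 alternatives, and none of the 9 genes passed an adjusted p of 0.05 in any (limma). Kcnk2 turned to -0.022 with chromosome medians subtracted. Leaving out 1 clone gave -0.30 to 0.35 for Kcnk2, -0.22 to 0.014 for Wwtr1 and -0.015 to 0.020 for Tead1. The cause of these turns was not tested. The count of all genes past 0.05, which was 0, was 2 with arrays shifted to 1 median, with chromosome medians subtracted and without constant genes, and 1 without moderation. The count of the 9 genes at an unadjusted p under 0.05, which was 1, was 0 without moderation, 2 with chromosome medians subtracted, and 0 to 2 with a clone left out. Without overlap, 5 were higher and 1 was lower with chromosome medians subtracted, and 0 to 1 were lower with a clone left out. Of the YAP/TAZ targets, 2 were higher without overlap after quantile normalization again. With a clone left out 1 to 4 were higher and 8 to 13 lower. Over all genes 11.9% to 25.2% were higher and 11.1% to 21% lower with a clone left out. The median of the other channels was -0.024 without the dimmest genes, 0.011 with arrays shifted, -0.016 after quantile normalization and -0.050 with chromosome medians subtracted. With a clone left out, that of the PIEZO partners ran from -0.051 to 0.075 and that of load-response genes from -0.26 to 0.026. Above the 99th in place of the 95th receptor percentile, 6 in place of 7 of the genes stood in every clone. Piezo2 in 12H and Trpv4 in 4L lay below the floor, so their signal there limits the size of the differences.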
